A study of Mus musculus with 7 samples.

Results

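The aminoacyl-tRNA synthetases were followed in mouse embryonic fibroblasts (MEFs) under 6 stresses. The family was taken by gene symbol from the deposited expression table, with the older names that lack a final 1, and 38 of the 49382 rows of the table were members: 20 genes for cytosolic enzymes, 16 for mitochondrial enzymes, whose symbols end in 2, and 2 for the scaffold proteins Aimp1 and Aimp2. All 38 members passed a filter on level, a mean TPM of 2 or more across the libraries, TPM being the length-corrected share of a transcript in its library, which 12909 of the 49382 rows passed. By the labels the MEFs were wild-type, came from embryos of day 13.5 to 14.4 without head and red tissue, and were used at passages 3 to 7, while the study's methods give a slightly later last day and first passage. After a night in culture they were left as a control, or received 10 µM sodium arsenite for 3 h (oxidative stress), 100 mM NaCl for 3 h (osmotic stress) or 1 µM thapsigargin for 10 h (ER stress), or spent 10 h without glucose, 10 h without glutamine or 10 h at 0.1% oxygen (hypoxia). Each condition was sequenced as 1 library, the labels give no time or vehicle for the control, and all 6 comparisons share that control library. With 1 library per condition no difference had a replicate check, and no error, p-value or interval could be given. Changes are log2(TPM + 1) of the stressed library minus log2(TPM + 1) of the control, and a gene is called higher or lower past 2-fold, that is beyond 1 or -1 on this scale.

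Aminoacyl-tRNA synthetases join each amino acid to its own tRNAs and so supply the ribosome with charged tRNA. Cytosol and mitochondria translate with separate tRNAs, and most of the mitochondrial enzymes are encoded by nuclear genes of their own, while the cytosolic Gars and Kars genes also give the mitochondrial forms and Eprs joins a glutamyl and a prolyl enzyme in a single protein. In animal cells several cytosolic enzymes sit with Aimp1, Aimp2 and a further scaffold in a multisynthetase complex. Genes for cytosolic enzymes are known as targets of the transcription factor ATF4, which is translated when the kinases that sense unfolded protein in the ER, missing amino acids or other stresses phosphorylate eIF2α. Thapsigargin blocks the calcium pump of the ER and activates that branch.

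All 8 fibroblast markers were well above the filter, with a summed level of 6160 to 12781 TPM, whereas the markers of macrophages summed to 6.76 to 13.7 TPM, of endothelial cells to 2.14 to 5.37 TPM, of epithelial cells to 3.88 to 11.6 TPM and of red cells to 0 to 0.787 TPM. Of these markers, Hbb-bs was listed at 0 in every library, and Adgre1, Ptprc, Epcam and Cdh1 stayed below 1 TPM. Others were higher. Cd68, at 5.26 to 9.77 TPM, Kdr, at up to 4.23 TPM, and Krt18 passed the filter. Csf1r reached 2.25 TPM in osmotic stress and Lyz2 2.23 TPM without glutamine. The fibroblast sum was lowest in ER stress, at 6160 TPM against 11389 TPM in the control, and all 8 markers were lower there. The epithelial sum was highest in ER stress, at 11.6 TPM against 5.90 TPM in the control, of which Krt18 made up 10.6 TPM and 5.56 TPM. Mitochondrially encoded transcripts took 5.09% of the TPM in ER stress, the lowest share, and 9.25% in oxidative stress, the highest, against 6.37% in the control. The part that these shifts had in the results on the enzymes was not tested. In such bulk libraries fewer cells of a type and less RNA per cell cannot be told apart.

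ER stress gave the highest levels of most cytosolic enzymes. Of the 20 genes, 9 were higher by more than 2-fold and none was lower, and 19 of 20 were above the control. Of all 12909 genes kept, 8.60% were higher by more than 2-fold in this comparison and 11.0% were lower. The median change of the 20 was 0.84 on the log2 scale, against 0.00 for all kept genes. Summed over the 20 genes the level was 2369.6 TPM in the control against 4737 TPM in ER stress, and between 2096 and 2522 TPM in the other 5 stressed libraries. The ER stress library had the highest level of the 7 for 18 of the 20, the exceptions being Dars and Mars, and for 33.2% of all kept genes.

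**Figure D1:**
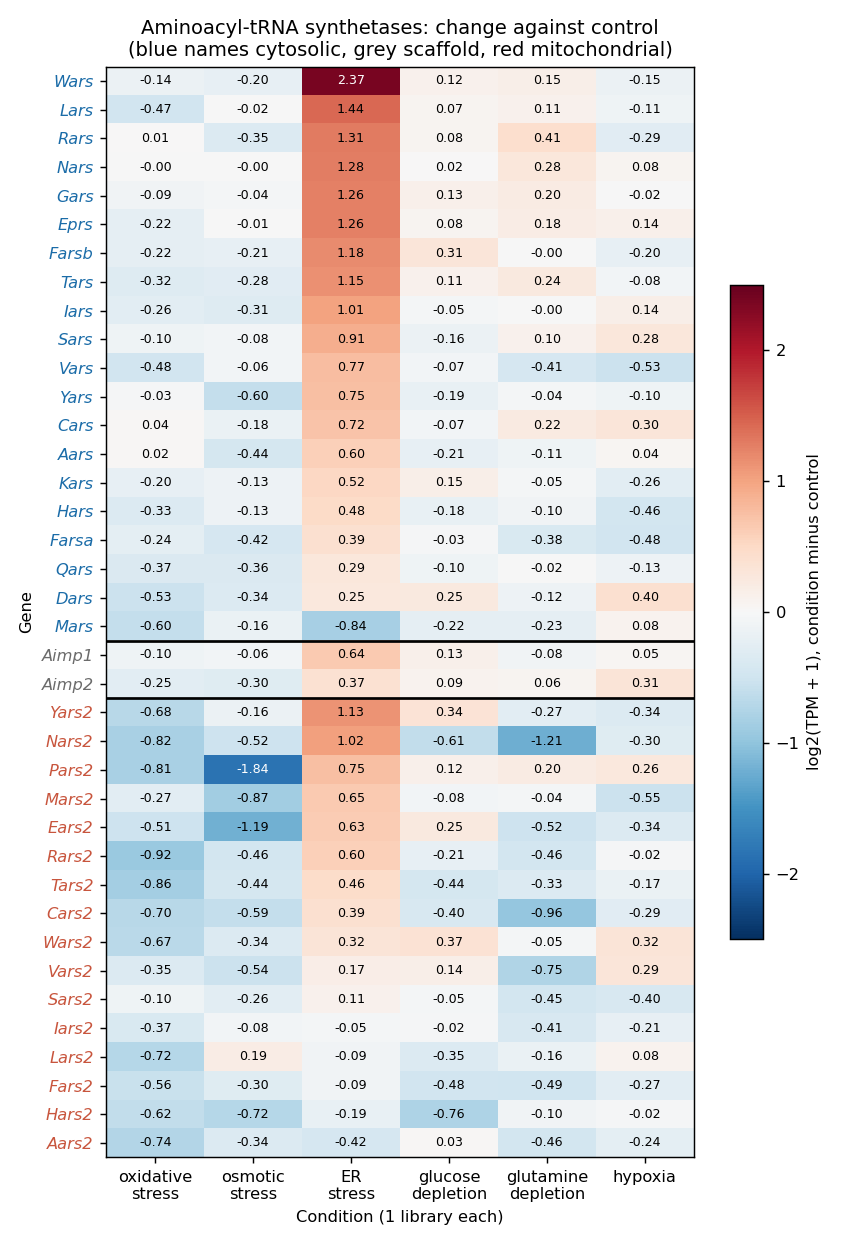
Log2(TPM + 1) of each stressed library minus the control for the 38 genes (rows, grouped as cytosolic, scaffold and mitochondrial and ordered by the change in ER stress) in the 6 conditions (columns, 1 library each). The ER stress column is above 0 in 19 of 20 cytosolic genes, with Wars at 2.37 and Mars at -0.84, and the oxidative stress column is below 0 in 16 of 16 mitochondrial genes.

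Wars, which charges tRNA with tryptophan, had the highest change. Its level was 55.5 TPM in the control, 292 TPM in ER stress, 50.2 in oxidative stress, 48.1 in osmotic stress, 50.0 in hypoxia, 60.2 without glucose and 61.7 without glutamine, a log2 change of 2.37 in ER stress, and the other 6 libraries lay between 48.1 and 61.7 TPM. The gene lies on chromosome 12, from 108860030 to 108894174 on the minus strand of GRCm38. Lars, for leucine, came next. Its level was 58.9 TPM in the control, 162 TPM in ER stress, 42.1 in oxidative stress, 58.2 in osmotic stress, 54.4 in hypoxia, 61.6 without glucose and 63.7 without glutamine. That was a log2 change of 1.44 in ER stress and of -0.47 in oxidative stress, its lowest library.

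Rars, Nars and Gars, the enzymes for arginine, asparagine and glycine, started from a higher level. Rars stood at 144 TPM in the control, 357 TPM in ER stress, 144 in oxidative stress, 112 in osmotic stress, 118 in hypoxia, 151 without glucose and 191 without glutamine, a log2 change of 1.31 in ER stress. For this gene glutamine depletion gave the highest level outside ER stress, with a log2 change of 0.41 that stayed within 2-fold. Nars stood at 275 TPM in the control, 672 TPM in ER stress, 275 in oxidative stress, 275 in osmotic stress, 291 in hypoxia, 279 without glucose and 335 without glutamine, and its log2 change in ER stress was 1.28. Gars stood at 225 TPM in the control, 541 TPM in ER stress, 212 in oxidative stress, 219 in osmotic stress, 222 in hypoxia, 247 without glucose and 259.9 without glutamine, and its log2 change in ER stress was 1.26. For both genes the control and the other 5 stressed libraries lay close together and apart from ER stress. In ER stress Nars had the highest level of the 20 cytosolic genes, followed by Sars at 558 TPM and then Gars.

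Eprs, Farsb, Tars and Iars completed the genes past 2-fold. Eprs, the joined glutamyl and prolyl enzyme, was at 118 TPM in the control, 283 TPM in ER stress, 101 in oxidative stress, 117 in osmotic stress, 129.6 in hypoxia, 124 without glucose and 134 without glutamine, a log2 change of 1.26 in ER stress. Farsb, the beta subunit of the phenylalanyl enzyme, was at 53.8 TPM in the control, 123 TPM in ER stress, 46.1 in oxidative stress, 46.2 in osmotic stress, 46.6 in hypoxia, 66.8 without glucose and 53.7 without glutamine, a log2 change of 1.18. Tars, for threonine, was at 125 TPM in the control, 279 TPM in ER stress, 99.97 in oxidative stress, 103 in osmotic stress, 119 in hypoxia, 135 without glucose and 148 without glutamine, a log2 change of 1.15. In all 3 the ER stress library was the highest by a wide gap. Iars, for isoleucine, was at 89.8 TPM in the control, 182 TPM in ER stress, 74.9 in oxidative stress, 72.0 in osmotic stress, 99.2 in hypoxia, 86.8 without glucose and 89.8 without glutamine, and with a log2 change of 1.01 it lay just past the 2-fold line. With the mitochondrially encoded genes taken out and the rest rescaled, its change was 0.99 and 8 in place of 9 genes were past 2-fold.

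**Figure D2:**
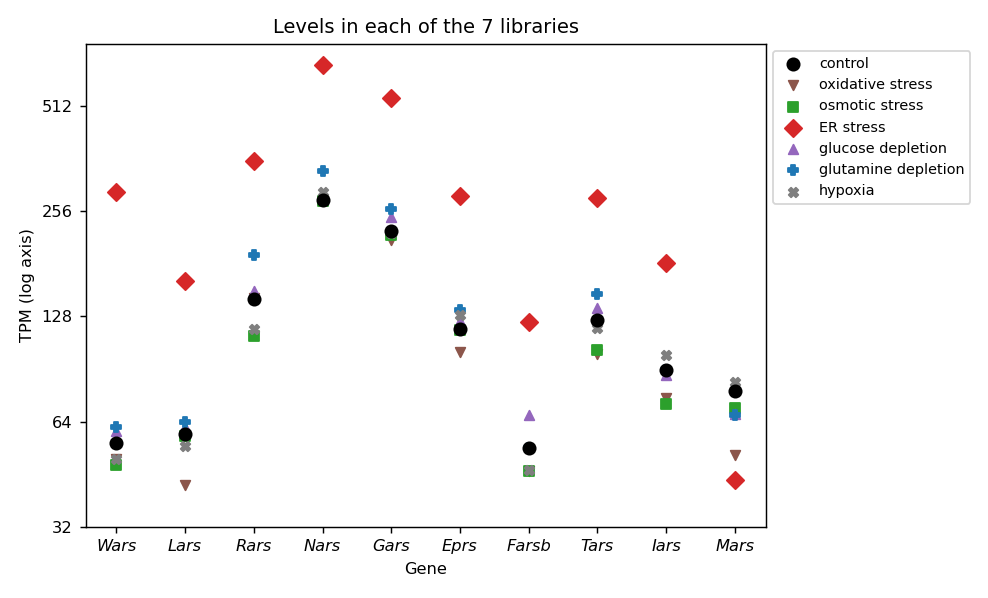
Level in TPM (log axis) of the 9 cytosolic enzymes past 2-fold in ER stress and of Mars in each of the 7 libraries, 1 point per library. For the first 9 genes the ER stress point is the highest of the 7, and for Mars it is the lowest, at 43.5 TPM against 78.4 TPM in the control.

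The other cytosolic enzymes stayed within 2-fold in ER stress. Sars, for serine, changed by 0.91 on the log2 scale, from 296 to 558 TPM. Vars, Yars, Cars, Aars and Hars, for valine, tyrosine, cysteine, alanine and histidine, had log2 changes of 0.77, 0.75, 0.72, 0.60 and 0.48. Kars, for lysine, was at 117 TPM in the control, 169 TPM in ER stress, 102 in oxidative stress, 107 in osmotic stress, 97.6 in hypoxia, 130.3 without glucose and 113 without glutamine, a log2 change of 0.52 in ER stress. Each of these 7 genes was highest in the ER stress library, as were 33.2% of all kept genes.

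The smallest changes in ER stress belonged to Dars, Qars and Farsa. Dars, for aspartate, was at 78.2 TPM in the control, 93.5 TPM in ER stress, 53.8 in oxidative stress, 61.7 in osmotic stress, 103 in hypoxia, 93.2 without glucose and 72.0 without glutamine, a log2 change of 0.25 in ER stress and of 0.40 in hypoxia, its highest library. Qars, for glutamine, was at 101 TPM in the control, 124 TPM in ER stress, 78.3 in oxidative stress, 79.0 in osmotic stress, 92.4 in hypoxia, 94.2 without glucose and 100.3 without glutamine, a log2 change of 0.29 in ER stress. Without glutamine in the medium the change of Qars was -0.02 on the log2 scale. Farsa, the alpha subunit that pairs with Farsb, was at 48.5 TPM in the control, 64.0 TPM in ER stress, 40.8 in oxidative stress, 36.0 in osmotic stress, 34.5 in hypoxia, 47.5 without glucose and 37.1 without glutamine, a log2 change of 0.39 in ER stress. The subunits of the phenylalanyl enzyme thus differed little in the control, with 48.5 TPM for Farsa and 53.8 TPM for Farsb, and more in ER stress, with 64.0 TPM and 123 TPM.

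Mars charges both the initiator and the elongator tRNA with methionine. Among the 20 cytosolic enzymes it alone was below the control in ER stress, and it was singled out after its values were seen. Its level was 78.4 TPM in the control, 43.5 TPM in ER stress, 51.5 in oxidative stress, 69.9 in osmotic stress, 82.9 in hypoxia, 67.3 without glucose and 66.6 without glutamine, and its log2 change in ER stress was -0.84, within 2-fold. The ER stress library was the lowest of the 7 for Mars and for no other cytosolic gene. Mars lies on the minus strand of chromosome 10, and its 3' end meets that of Ddit3, a transcription factor gene of the same stress response, on the opposite strand. In the GENCODE M21 annotation of GRCm38 their exons share 68 bases, from 127296221 to 127296288, and 38 words of 31 bases, which are 1.10% of the words of Mars transcripts. Ddit3 stood at 136 TPM in the control, 1869.5 TPM in ER stress, 177 in oxidative stress, 48.9 in osmotic stress, 208 in hypoxia, 95.9 without glucose and 141 without glutamine. The libraries were stranded, but the default quantification does not use strand, and the effect of the shared bases on the level of Mars was not tested.

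Other members share sequence with neighbours to a varying degree. Of the 38 genes, 29 shared fewer than 5% of their 31-base words with any other gene. The 4 at 10% or more were Aimp2 (27.8% with Eif2ak1), Iars2 (22.4% with Rab3gap2), Iars (14.5% with Gm4849) and Aars (13.8% with Exosc6), so their levels are less certain than those of the rest. Of the 9 cytosolic genes past 2-fold in ER stress, Wars, Lars, Rars, Nars and Gars shared none. Hars and Hars2, which lie head to head, share 195 exonic bases and 165 such words, so part of their reads cannot be told apart.

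By role, the cytosolic genes gave like medians in ER stress. In this comparison 8.60% of all kept genes were higher by more than 2-fold. Of the 8 enzymes of the multisynthetase complex (Dars, Eprs, Iars, Kars, Lars, Mars, Qars and Rars), 4 were past 2-fold, and the 8 changes ran from -0.84 to 1.44 around a median of 0.77. Among the 12 free enzymes 5 were past 2-fold, with a median of 0.84 and a range from 0.39 to 2.37. Class I enzymes, whose catalytic site is a Rossmann fold, had 4 of 9 past 2-fold and a median of 0.77, and class II enzymes 4 of 10 and a median of 0.75, with Eprs, which holds both classes, left out. The scaffolds had changes below the median of the cytosolic enzymes. Aimp1 was at 78.2 TPM in the control, 123 TPM in ER stress, 72.8 in oxidative stress, 74.7 in osmotic stress, 81.2 in hypoxia, 85.4 without glucose and 73.7 without glutamine, a log2 change of 0.64 in ER stress. Aimp2 was at 63.7 TPM in the control, 82.9 TPM in ER stress, 53.2 in oxidative stress, 51.7 in osmotic stress, 79.4 in hypoxia, 68.0 without glucose and 66.6 without glutamine, a log2 change of 0.37. Both scaffolds were highest in ER stress, as were 33.2% of all kept genes.

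Because 19 of the 20 cytosolic genes lay above the control in ER stress, the promoters of the family were read for the core of the C/EBP-ATF response element, to which ATF4 binds with a C/EBP partner. The letters TGATGNAA were searched on both strands of RefSeq promoters of GRCm38, each running from 250 bases before to 50 after a transcript start. Promoters were given for 29 of the 38 members, namely 13 cytosolic enzymes, 14 mitochondrial enzymes and both scaffolds. The genes with no entry were Cars, Hars, Lars, Nars, Rars, Vars, Wars, Hars2 and Pars2. The letters stood in 5 of the 13 cytosolic promoters (38.5%), in 0 of 14 mitochondrial and in 0 of 2 scaffold promoters. Among all 32851 promoters given, 3.97% held them, and among 27025 genes 4.51%. The 5 genes were Aars, Gars, Iars, Tars and Yars, with log2 changes in ER stress from 0.60 to 1.26 and a median of 1.01, and 3 of them were past 2-fold. The 8 cytosolic genes with a promoter but without the letters ran from -0.84 to 1.26 with a median of 0.46, and 2 of them, Eprs and Farsb, were past 2-fold. In ER stress 8.60% of all kept genes were higher past 2-fold. The cytosolic genes of highest change in ER stress, Wars (2.37), Lars (1.44), Rars (1.31) and Nars (1.28), had no entry. They are in neither group, so these medians cannot show whether the letters go with the change. A match is a description of the letters and not a measured binding site. The 5 promoters with the letters, and that of Mars, the one cytosolic gene below the control, are shown for 120 bases before to 30 after the start, 5' to 3' on the strand of the gene, with each match in capitals. They are chr8:111033722-111033871 on the plus strand, chr6:55037881-55038030 on the plus strand, chr13:49682010-49682159 on the plus strand, chr15:11399629-11399778 on the minus strand, chr4:129189783-129189932 on the plus strand and chr10:127311757-127311906 on the minus strand.
Aars: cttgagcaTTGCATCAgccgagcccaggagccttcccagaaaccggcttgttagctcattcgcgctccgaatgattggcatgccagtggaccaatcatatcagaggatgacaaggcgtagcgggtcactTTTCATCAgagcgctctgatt
Gars: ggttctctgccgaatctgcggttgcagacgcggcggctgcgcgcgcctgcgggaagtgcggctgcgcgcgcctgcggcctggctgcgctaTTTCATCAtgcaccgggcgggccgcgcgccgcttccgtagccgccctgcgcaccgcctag
Iars: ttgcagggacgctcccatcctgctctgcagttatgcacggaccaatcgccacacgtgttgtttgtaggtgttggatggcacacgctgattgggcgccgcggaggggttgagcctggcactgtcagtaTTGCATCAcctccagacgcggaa
Tars: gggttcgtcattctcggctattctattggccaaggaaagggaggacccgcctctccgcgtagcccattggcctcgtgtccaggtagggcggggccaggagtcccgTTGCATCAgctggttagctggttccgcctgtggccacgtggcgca
Yars: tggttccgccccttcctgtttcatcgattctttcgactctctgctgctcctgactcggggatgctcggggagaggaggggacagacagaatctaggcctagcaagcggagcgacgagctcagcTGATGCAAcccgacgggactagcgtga
Mars: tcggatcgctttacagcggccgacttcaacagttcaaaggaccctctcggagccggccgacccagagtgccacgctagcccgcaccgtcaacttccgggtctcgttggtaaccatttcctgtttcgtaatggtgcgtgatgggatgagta

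The first match in Aars lay 112 to 105 bases before the start, in Gars 30 to 23 bases before and in Tars 15 to 8 bases before. The second match in Aars (bases 10 to 17), that in Iars (bases 8 to 15) and that in Yars (bases 4 to 11) lay after the start, within the transcribed part. The matches in Aars, Gars, Iars and Tars read on the strand opposite to the gene, with the words TTGCATCA or TTTCATCA on the strand shown, and that in Yars, TGATGCAA, read on the strand of the gene.

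The mitochondrial enzymes held fewer genes past 2-fold in ER stress. There 2 of the 16 genes were higher by more than 2-fold and none was lower, the 16 changes had a median of 0.36, and 11 of 16 were above the control. Of all kept genes 8.60% were higher past 2-fold and 11.0% lower, so the count of 2 of 16 is near the background. Yars2, for tyrosine, was at 19.97 TPM in the control, 44.8 TPM in ER stress, 12.1 in oxidative stress, 17.8 in osmotic stress, 15.6 in hypoxia, 25.5 without glucose and 16.4 without glutamine, a log2 change of 1.13 in ER stress. Nars2, for asparagine, was at 8.82 TPM in the control, 18.9 TPM in ER stress, 4.56 in oxidative stress, 5.87 in osmotic stress, 6.98 in hypoxia, 5.42 without glucose and 3.23 without glutamine, a log2 change of 1.02. Both were highest in the ER stress library, as were 9 of the 16 and 33.2% of all kept genes. The lowest change in ER stress was that of Aars2, for alanine, at -0.42.

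In oxidative stress every mitochondrial enzyme was below the control. None of the 16 passed 2-fold in either direction, where 3.94% of all kept genes were higher and 4.85% lower, but 16 of 16 had a change below 0, against 66.0% of all kept genes. Their changes ran from -0.92 for Rars2, the arginyl enzyme, to -0.10 for Sars2, the seryl enzyme, with a median of -0.68 against -0.16 for all kept genes. The 20 cytosolic enzymes had a median of -0.22, ran from -0.60 to 0.04, and also held no gene past 2-fold. The oxidative stress library was the lowest of the 7 for 7 of 16 mitochondrial genes, 7 of 20 cytosolic genes and 15 of all 38, and for 18.8% of all kept genes. This library also held the highest mitochondrially encoded share, 9.25%.

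Osmotic stress gave the lowest values of single mitochondrial enzymes. Of the 16 genes 2 were lower by more than 2-fold and none was higher. Of all kept genes 8.76% were lower and 3.08% higher, so the count of 2 of 16 is near the background. The median log2 change of the 16 genes was -0.45. Pars2, the prolyl enzyme of mitochondria, was at 4.22 TPM in the control, 7.75 TPM in ER stress, 1.97 in oxidative stress, 0.458 in osmotic stress, 5.26 in hypoxia, 4.67 without glucose and 4.99 without glutamine, a log2 change of -1.84 in osmotic stress. Ears2, for glutamate, was at 5.21 TPM in the control, 8.62 TPM in ER stress, 3.36 in oxidative stress, 1.71 in osmotic stress, 3.90 in hypoxia, 6.39 without glucose and 3.32 without glutamine, a log2 change of -1.19. Both genes were lowest in osmotic stress and highest in ER stress. Their control levels were a few TPM, and the depth behind TPM values is unknown. With a pseudocount of 0.1 TPM the change of Pars2 was -2.95, and with 5 TPM it was -0.76 and no mitochondrial enzyme passed 2-fold in any condition. All 20 cytosolic enzymes were below the control in osmotic stress, against 61.6% of all kept genes, but by little: the median was -0.19, and the lowest was Yars at -0.60.

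Withdrawal of glutamine, the amino acid that Qars charges, moved none of the 20 cytosolic enzymes past 2-fold, where 3.21% of all kept genes were higher and 3.21% lower. Their median log2 change was -0.00, with 9 above and 11 below the control, and the range ran from -0.41 for Vars to 0.41 for Rars. The mitochondrial enzymes were below the control in 15 of 16 genes, against 60.0% of all kept genes, with a median of -0.43. Nars2 was lower by more than 2-fold, at 3.23 TPM against 8.82 TPM and a log2 change of -1.21. Cars2, for cysteine, was next at -0.96, and Pars2 was the one gene above the control, at 0.20.

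Glucose depletion and hypoxia moved no member past 2-fold in either direction. In glucose depletion 1.83% of all kept genes were higher and 2.41% lower, and in hypoxia 3.57% were higher and 2.64% lower. In glucose depletion the median log2 change was -0.01 for the cytosolic and -0.06 for the mitochondrial enzymes, and the widest change was that of Hars2, at -0.76. In hypoxia the medians were -0.09 and -0.23, with Vars lowest among the cytosolic genes at -0.53 and Mars2 lowest among the mitochondrial genes at -0.55. The remaining mitochondrial genes, Fars2, Iars2, Tars2, Vars2 and Wars2, had no change past 2-fold in any condition, with changes from -0.86 for Tars2 in oxidative stress to 0.46 for Tars2 in ER stress.

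In all 6 conditions the median change of the cytosolic enzymes was above that of the mitochondrial enzymes. The difference of the medians was 0.48 on the log2 scale in ER stress, 0.46 in oxidative stress, 0.43 without glutamine, 0.26 in osmotic stress, 0.14 in hypoxia and 0.06 without glucose. The 6 differences share the control library and are not 6 separate observations. With the glucose depletion library in place of the control, the difference was -0.01 in osmotic stress and -0.21 in hypoxia. Levels also set the groups apart. Mean levels over the 7 libraries ran from 44.1 to 343 TPM in the cytosolic genes and from 2.34 to 33.4 TPM in 15 of the 16 mitochondrial genes. Lars2, the mitochondrial leucyl enzyme, was the exception at 489 TPM in the control, 460.5 TPM in ER stress, 297 in oxidative stress, 557 in osmotic stress, 518 in hypoxia, 385 without glucose and 436 without glutamine. It was lowest in oxidative stress, with a log2 change of -0.72, and alone among the mitochondrial genes it was above the control in osmotic stress, at 0.19.

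**Figure D3:**
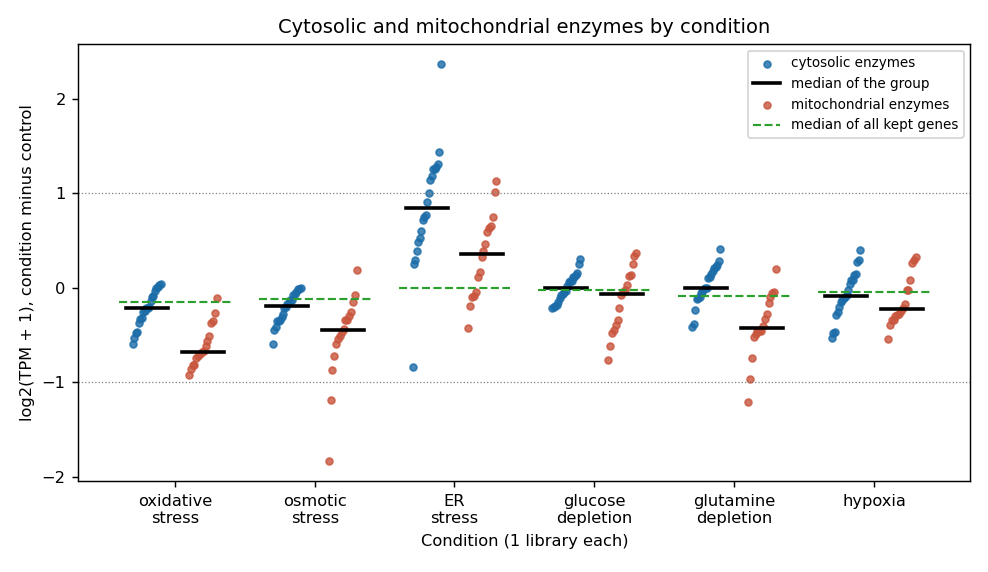
Log2(TPM + 1) of each stressed library minus the control for each of 20 cytosolic (blue) and 16 mitochondrial (red) enzymes in the 6 conditions, 1 point per gene, with the median of each group (black bar), the median of all 12909 kept genes (dashed) and 2-fold (dotted). The cytosolic median is 0.84 and the mitochondrial median 0.36 in ER stress, and they are -0.22 and -0.68 in oxidative stress.

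Genes that act before and after charging were read from further lists. The cytosolic delivery and elongation list, 6 genes for the factors that bring charged tRNA to the ribosome and move it, held no gene past 2-fold in any condition, and its median in ER stress was 0.11. Its widest change there was that of Eef1e1, the further scaffold of the multisynthetase complex, at 0.82. The mitochondrial charging and delivery list of 9 genes held none past 2-fold in ER stress, with a median of -0.13. In oxidative stress all 9 were below the control with a median of -0.56. In osmotic stress Mtfmt, which formylates the initiator methionyl-tRNA of mitochondria, changed by -1.41, where 8.76% of all kept genes were lower past 2-fold. In glutamine depletion all 9 were again below the control, with a median of -0.41 and none past 2-fold.

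Among 11 genes of tRNA maturation and export, 2 were higher by more than 2-fold in ER stress and none was lower, where 8.60% of all kept genes were higher and 11.0% lower, and the median of the 11 changes was 0.38. They were Xpot, the exportin that carries tRNA out of the nucleus, from 87.0 to 208 TPM with a change of 1.25, and Trnt1, which adds the CCA end to which the amino acid is joined, from 45.0 to 98.0 TPM with a change of 1.11. In oxidative stress Rpp40 and Pop5 of the RNase P and MRP particles were lower past 2-fold, at -1.64 and -1.12, where 4.85% of all kept genes were lower. Rpp40 was also lower in hypoxia, at -1.13, where 2.64% were lower. Of 7 editing and related enzymes, none passed 2-fold in ER stress (median -0.09). Aarsd1 (-1.39) and Tarsl2 (-1.01) were lower in oxidative stress, against 4.85% of all kept genes, and Prorsd1 (-1.32) in osmotic stress, against 8.76%. Tarsl2, like the rest of this list, was outside the 20 cytosolic enzymes counted above.

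The amino acid response list held 20 genes known to answer to amino acid shortage or ATF4. In ER stress 14 were higher by more than 2-fold, against 8.60% of all kept genes, and none was lower. The median was 1.38, and the widest changes were those of Atf3 (4.81), Ddit3 (3.77), Chac1 (3.05) and Slc3a2 (2.85). Atf4 itself went from 276 to 773 TPM, a log2 change of 1.48. In glutamine depletion, where 3.21% of all kept genes were higher, 3 of the 20 were higher past 2-fold, namely Atf3 (2.47), Chac1 (1.69) and Nupr1 (1.37), with a median of 0.29. In oxidative stress, where 3.94% of all kept genes were higher, 3 of the 20 were higher, namely Atf3 (4.47), Slc7a11 (2.22) and Chac1 (1.38), with a median of 0.16. In neither of these conditions did any of the 20 cytosolic enzymes of the family pass 2-fold. In osmotic stress 3 were higher, with Slc38a2 at 2.22, against 3.08% of all kept genes, and 4 were lower, with Chac1 at -2.36 and Trib3 at -2.00, against 8.76%. Trib3 alone was higher past 2-fold in hypoxia, at 1.18, where 3.57% of all kept genes were higher, and none of the 20 passed 2-fold in glucose depletion.

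**Figure D4:**
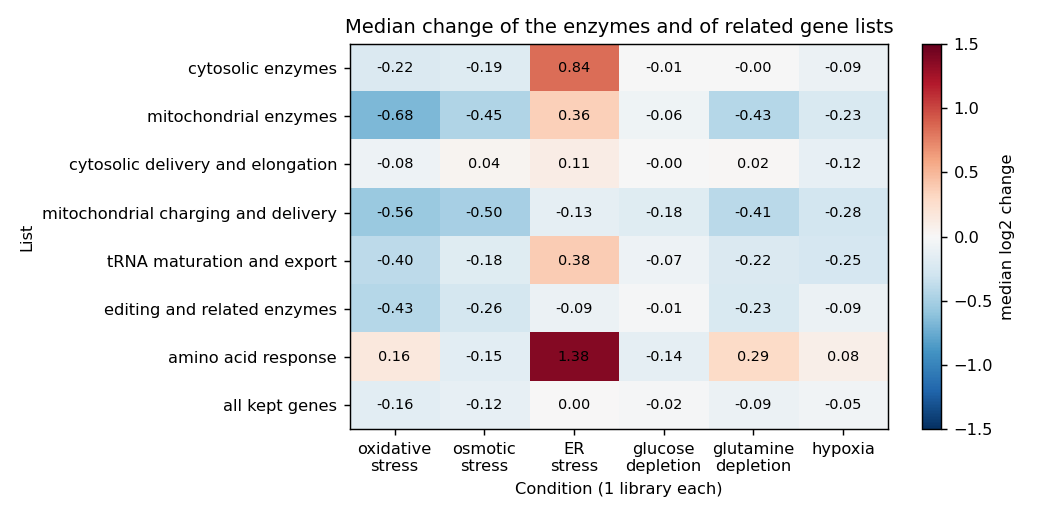
Median log2(TPM + 1) change against the control of the 20 cytosolic and 16 mitochondrial enzymes, of 5 related gene lists and of all kept genes (rows) in the 6 conditions (columns, 1 library each). In ER stress the cytosolic enzymes stand at 0.84, the amino acid response list at 1.38 and the cytosolic delivery list at 0.11, and in oxidative stress both mitochondrial lists stand below -0.5.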

How the data were processed

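Poly(A) RNA of MEFs was sequenced from stranded libraries as pairs of 76 bp reads. The authors quantified transcripts with kallisto at default settings (version 0.43.1 and build GRCm38 in the submitters' processing notes), and summed them to genes as TPM, the unit of the deposited table, in which all libraries sum to the same total. TPM values are shares per transcript length, keep no depth, and so precision could not be given, and a rise of abundant genes lowers all others. Groups were taken from the sample labels, with 1 library each. Every column of the table was used. Here a pseudocount of 1 TPM, a mean of at least 2 TPM and a 2-fold line were applied with Python 3.11.15, numpy 2.4.6 and pandas 2.3.3, and figures were drawn with matplotlib 3.10.9. The computation was tested on simulated data. No test was run, since each condition has 1 library. The table keys were matched to GENCODE M21, and promoters to RefSeq by symbol. Mars was matched through its RefSeq synonym.

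The members and lists were chosen with earlier results of these data known. Full values are given for members past 2-fold in any condition, the 3 cytosolic enzymes of smallest change in ER stress, Qars, Eprs, Kars, Gars, Aimp1, Aimp2 and the 3 mitochondrial enzymes of widest change, and for other lists at most 4 genes of widest change. Some genes of the other lists are not reported here by name. Mars, Lars2, Atf4 and the further members given with values lie outside this rule and were named after their values were seen. Alternatives were other pseudocounts, filters, fold lines, centring, removal of mitochondrially encoded genes and another reference library.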

Additional observations from a re-analysis of the deposited data

How the results depend on the processing

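With 1 library per condition and no depth, neither replicate error nor counting error is known, and low genes such as Pars2 and Mars2 are the least certain. Over the alternatives, 169 values of counts and medians stayed within 1.5 times the count, or within 0.1 (log2) of the median, 29 moved and 2 changed sign, and the causes were not tested beyond what each alternative does. Part of the 169 could not move. All 38 members passed the filter, so dropping it left every value the same. Centring shifts both groups alike and so leaves the difference of their medians unchanged. The number of cytosolic enzymes higher in ER stress was 14 at 1.5-fold and 1 at 3-fold. At 1.5-fold, 1 cytosolic enzyme was lower in each of oxidative, osmotic and ER stress, and the mitochondrial enzymes changed numbered 10 in oxidative stress, 5 in osmotic stress, 6 in ER stress, 2 in glucose depletion and 3 in glutamine depletion. At 3-fold these were 1 in osmotic stress and 0 in ER stress and glutamine depletion. Shares of all kept genes were taken only at 2-fold with the main settings. The counts under the alternatives therefore have no background beside them and cannot be read as a result about the members. With a pseudocount of 0.1 TPM, the mitochondrial enzymes past 2-fold numbered 1 in oxidative stress and 2 without glutamine, and with 5 TPM 0 in osmotic stress, ER stress and glutamine depletion, while the cytosolic minus mitochondrial median was 0.220 in oxidative stress and 0.291 without glutamine. With a mean of at least 10 TPM, which kept 8 mitochondrial genes, the numbers were 0 in osmotic stress, 1 in ER stress and 0 in glutamine depletion, and the difference of medians was 0.274 in glucose depletion and 0.00768 in hypoxia. With the glucose depletion library as the reference, the mitochondrial enzymes past 2-fold numbered 2 in oxidative stress, 1 in ER stress and 0 in glutamine depletion, and the difference of medians was 0.153 in oxidative stress, -0.0132 in osmotic stress and -0.214 in hypoxia. No paired analysis was possible because each condition has 1 library, so no replicate could be left out either.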
